A study of Mus musculus with 4 samples.

Results

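SOX2 chromatin occupancy in the mouse cortex was examined around the genes of the other SOXB transcription factors, Sox1 and Sox3 of the SOXB1 subgroup and Sox14 and Sox21 of the SOXB2 subgroup. The 4 genes were taken from 21631 protein-coding genes of the RefSeq mouse annotation, and every SOX2 peak with its centre inside a gene or within 50 kb of it was counted as lying at that gene. The assay was ChIP-seq, which sequences the chromatin fragments that an antibody recovers. There were 3 immunoprecipitated (IP) libraries, made with a rabbit antibody to SOX2, and 1 input library of unselected chromatin. All came from cortex of male wild-type C57BL/6 mice aged 2 months, and the labels of all 4 samples, input included, also list SOX2 as transduced, which does not match wild-type tissue. Peaks had been called in each IP library against the input. The labels do not state if the IP libraries are from different animals, and their spread may be technical. The IP libraries held 36330529, 32492927 and 41875666 tags, which are reads aligned to the genome, and 17730, 17628 and 15891 peaks.

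SOXB proteins bind DNA through an HMG box and recognise short sequences related to ACAAT. The SOXB1 proteins SOX1, SOX2 and SOX3 act mainly as activators that keep neural progenitors undifferentiated, and the SOXB2 proteins SOX14 and SOX21 act mainly as repressors. In the developing nervous system, SOX21 is known to oppose SOXB1 activity, and SOXB1 genes are expressed in overlapping domains. In the adult brain SOX2 is made by neural stem cells and astrocytes.

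Normalized tags, the tags of a peak after the authors scaled every library to 10000000 tags, serve as the measure of strength. Overlapping peaks were merged into regions, and a region with peaks of all 3 IP libraries is called reproducible. Of the 4 genes, 2 had a reproducible region within 50 kb, namely Sox1 with 4 and Sox21 with 1. Among all protein-coding genes, 46.6% had a reproducible region within 50 kb, and among those that span at most 5 kb, as the 4 members do, 31.2% had one. The 2 of 4 members with a region are not read as a result about the members, since 4 genes are too few to tell the count from either share. Sox3 and Sox14 had no peak in any IP library there, while 62.8%, 63.2% and 60.9% of protein-coding genes had a peak in IP libraries 1, 2 and 3, and 71.8% in at least 1 of them. These shares are over genes of every span and were not computed for genes of at most 5 kb, where reproducible regions were less frequent. At least 4 reproducible regions, the number at Sox1, were found at 3.93% of protein-coding genes and at 2.10% of those of at most 5 kb. In all, 16 of the peaks (5, 5 and 6 in IP libraries 1, 2 and 3) and 5 of the 9334 reproducible regions lay at the 4 genes.

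**Figure D1:**
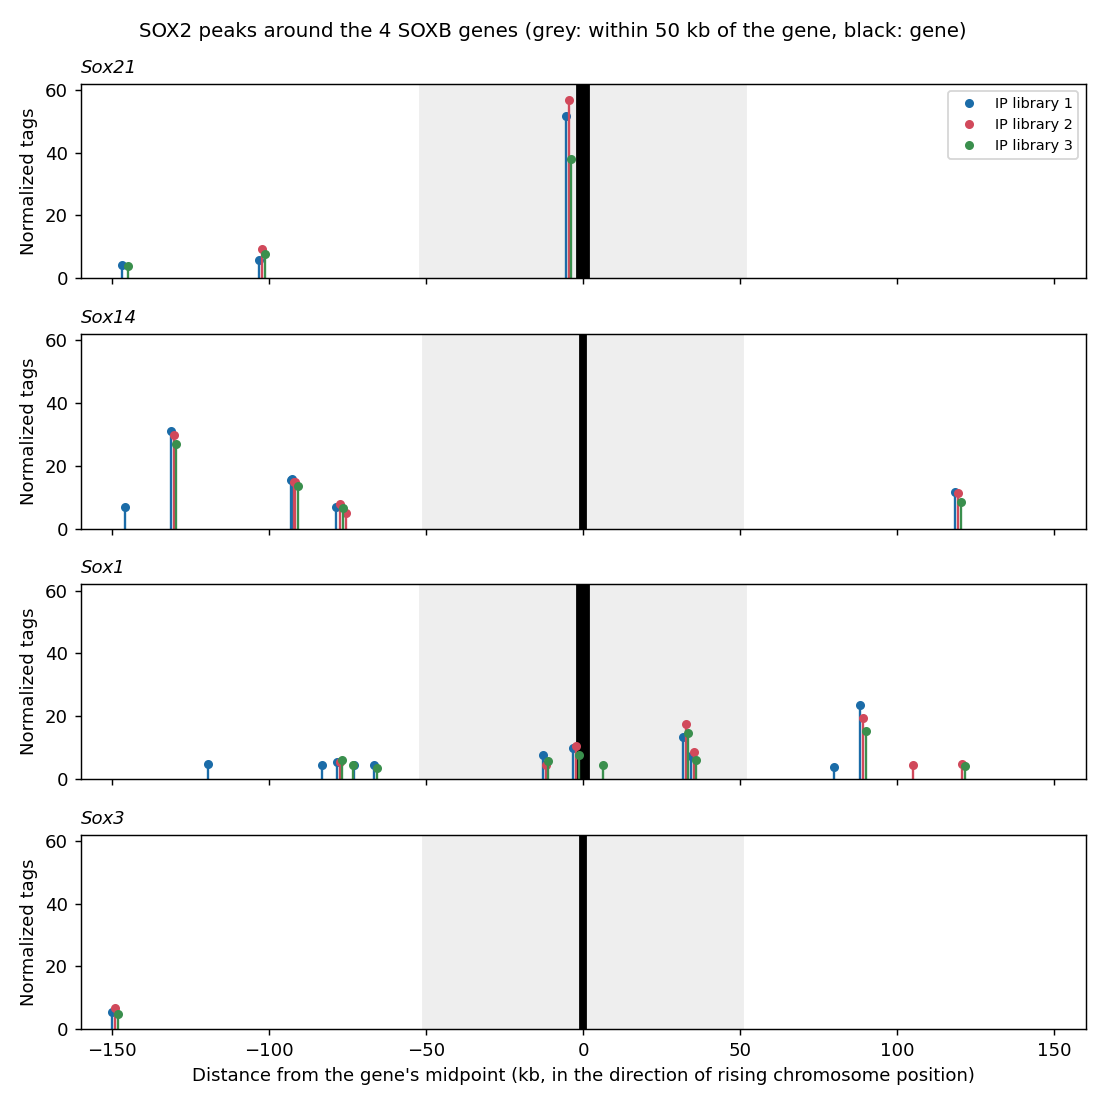
Each panel plots the normalized tags of every SOX2 peak (vertical axis) against its distance from the midpoint of the gene in kb, in the direction of rising chromosome position (horizontal axis), with IP libraries in 3 colours that are offset slightly so that all can be seen. Sox21 had 1 tall group of peaks beside the gene. Sox1 had 4 groups and a single peak of IP library 3 within the grey band that marks 50 kb. The grey bands of Sox14 and Sox3 were empty.

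Sox1 encodes a SOXB1 factor that marks the early neural plate and neural progenitors. The gene lies on chromosome 8 from 12395519 to 12399555 on the mm10 build, on the plus strand. It sits inside Sox1ot, a long non-coding RNA gene of the same strand that runs from 12385771 to 12436732. Both genes had a reproducible SOX2 region close to their start, and the sequence around each start is shown because the region overlaps it at least in part. The windows are those of RefSeq on GRCm38.p6 (the mm10 build), plus strand, with 250 bases before the annotated start and 50 bases after it. Capitals mark matches on either strand to the 4 motifs searched. ACAAT is the core of the sites that SOX factors recognise, and CATTGT is a longer form on the other strand, so that every match to it is also a match to the core. The variant ACAAAG is likewise recognised by HMG box factors. ATGCAAA is a part of the octamer bound by POU factors, which are known partners of SOX2. The window of Sox1 is chr8:12395269-12395568 and that of Sox1ot is chr8:12385521-12385820.
Sox1: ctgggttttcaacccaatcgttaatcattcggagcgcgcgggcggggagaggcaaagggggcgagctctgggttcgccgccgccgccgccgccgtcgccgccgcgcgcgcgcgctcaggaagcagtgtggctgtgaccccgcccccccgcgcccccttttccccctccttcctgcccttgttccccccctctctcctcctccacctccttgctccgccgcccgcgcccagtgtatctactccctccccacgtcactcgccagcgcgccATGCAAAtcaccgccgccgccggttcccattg
Sox1ot: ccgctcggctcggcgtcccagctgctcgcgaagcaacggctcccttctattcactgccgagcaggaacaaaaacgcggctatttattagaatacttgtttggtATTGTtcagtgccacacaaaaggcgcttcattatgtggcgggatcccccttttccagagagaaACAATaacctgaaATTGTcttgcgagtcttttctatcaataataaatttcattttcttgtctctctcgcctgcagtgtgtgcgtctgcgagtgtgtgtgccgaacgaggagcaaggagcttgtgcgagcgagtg

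The reproducible region at the Sox1 start covered bases 1 to 50 of the window shown and continued upstream of it. Its centre, 0.294 kb before the gene, lay outside the window, and the part upstream was not searched for motifs. The window held 1 match to ATGCAAA, at bases 269 to 275, outside the region, and no match to the SOX motifs. At Sox1ot the region covered bases 1 to 170 of the window. That window held 3 matches to ACAAT, of which the match at bases 104 to 108 lay inside the region, that at bases 167 to 171 crossed its edge and that at bases 180 to 184 lay beyond it. Among the 1861 RefSeq start windows that overlapped a reproducible region, 5.66% of all, 29.8% held ACAAT, 20.8% ACAAAG, 13.1% CATTGT and 4.46% ATGCAAA. Among all 32851 windows of the same length the shares were 31.0%, 18.7%, 12.6% and 4.63%. The windows of Sox14 and Sox21 overlapped no reproducible region and held no match to these motifs. The sequence also differed in composition, with a GC content of 70.7% in the window of Sox1 and 49.7% in that of Sox1ot, against a median of 52.7% over all windows. A match is a description of the letters and not evidence of a bound site.

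The region at the Sox1 start, from 12395131 to 12395318, had its centre 0.294 kb upstream of the gene. It held 9.91, 10.5 and 7.64 normalized tags in IP libraries 1, 2 and 3 (9.35 ± 1.51, mean and SD, n = 3). All 3 values were above the median peak of their own library, which held 6.06, 6.16 and 5.25 normalized tags. Those medians include peaks found in a single library. Over reproducible regions alone, the median of the mean was 7.63 normalized tags. The peaks ranked 3331, 2850 and 3864 in their libraries, stronger than 80.0%, 82.8% and 74.0% of the peaks. As ratios of IP tags to input tags, deposited by the authors, these peaks were 32.6-fold, 34.5-fold and 25.2-fold enriched, with an input of 1.0 tag in each case. Over the surrounding 10 kb the same peaks were enriched 7.03-fold, 8.78-fold and 8.14-fold.

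The region at the start of Sox1ot, from 12385521 to 12385690, lay 9.91 kb from Sox1 and 0.166 kb from Sox1ot, so the non-coding gene was the nearer. It held 7.71, 4.31 and 5.73 normalized tags in IP libraries 1, 2 and 3, or 28, 14 and 24 tags. This was the weakest reproducible region of the locus, with a mean of 5.92 ± 1.71 (SD, n = 3). That is near the level of the median peak and below the median of 7.63 over reproducible regions. Relative to the input it was enriched 12.7-fold, 7.10-fold and 9.44-fold.

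The strongest region at Sox1 lay inside Sox1ot, downstream of the coding gene, from 12430078 to 12430258. Its centre was 30.6 kb beyond the end of Sox1 and 34.6 kb from its start. It held 13.2, 17.5 and 14.6 normalized tags in IP libraries 1, 2 and 3 (15.1 ± 2.19, mean and SD, n = 3). Every library had this region among its stronger peaks, at ranks 1663, 721 and 703, above 90.1%, 95.7% and 95.3% of peaks. The enrichment was 14.5-fold, 28.9-fold and 12.0-fold over the input and 10.8-fold, 13.1-fold and 12.7-fold over the surrounding 10 kb.

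A further region followed after a short gap, from 12432645 to 12432919, with its centre 33.2 kb beyond the end of Sox1 and also inside Sox1ot. It held 7.16, 8.62 and 5.97 normalized tags in IP libraries 1, 2 and 3 (7.25 ± 1.33, mean and SD, n = 3). The centres of its peaks differed by up to 119 bp between libraries. Relative to the input it was enriched 47.1-fold in IP library 1, where the input stood at its floor of 0.5 tags, and 9.46-fold and 6.55-fold in IP libraries 2 and 3. Over the surrounding 10 kb it was only 4.73-fold to 6.01-fold, close to the 4-fold that the authors required. IP library 3 alone had 1 more peak at the locus, 3.50 kb beyond the end of Sox1, with 4.30 normalized tags.

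Summed over all peaks within 50 kb, Sox1 had 38.0, 40.9 and 38.2 normalized tags in IP libraries 1, 2 and 3 (39.0 ± 1.63, mean and SD, n = 3). These sums cover 4, 4 and 5 peaks. That of IP library 3 includes the peak of 4.30 normalized tags found only there, so the sums are not over the same regions. Among protein-coding genes Sox1 was the nearest to all 4 of its regions, and with non-coding genes included Sox1ot was nearer to all 4, so the data do not tie a region to either gene.

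**Figure D2:**
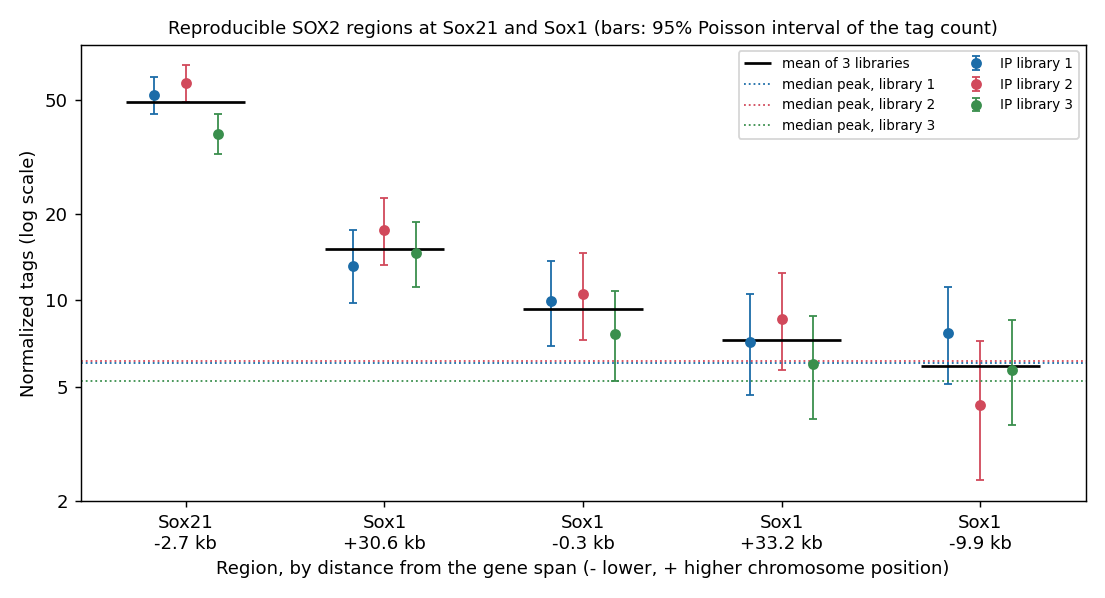
Normalized tags on a log axis are plotted for the 5 reproducible regions at Sox21 and Sox1, labelled by their distance from the gene, with 1 point for each IP library, its 95% Poisson interval as a bar, the mean as a black line and the median peak of each library as a dotted line. The Sox21 region stood above every Sox1 region in all 3 libraries, and the region 9.9 kb before Sox1 straddled the median peak.

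Sox3, the other SOXB1 gene and the only member on the X chromosome, encodes a factor needed for development of the hypothalamus and pituitary. It lies on chromosome X from 60891366 to 60893430. No IP library had a peak within 50 kb of it. The nearest peaks formed a reproducible region 148 kb from the gene, from 60743218 to 60743481, with 5.51, 6.77 and 4.78 normalized tags in IP libraries 1, 2 and 3 (5.69 ± 1.01, mean and SD, n = 3). These values are near the median peak, but their mean is below the median of 7.63 over reproducible regions. Sox3 was the nearest protein-coding gene despite the distance. The pseudogene Gm8163 was nearer, at 15.8 kb. On the X chromosome, of which male cells carry a single copy, 15.7% of protein-coding genes had a reproducible region within 50 kb, against 48.0% on the autosomes. The X chromosome held 1.33% of reproducible regions, against 4.47% of protein-coding genes. Reproducible regions there had a median of 6.57 normalized tags, against 7.66 on the autosomes. The part of the X chromosome in the absence of peaks at Sox3 was not tested.

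Sox14, a SOXB2 gene known for its expression in interneurons of the thalamus, midbrain and spinal cord, lies on chromosome 9 from 99874106 to 99876170 on the minus strand. No IP library had a peak within 50 kb of it. Beyond that limit, IP library 2 had a peak of 4.92 normalized tags at 74.5 kb, and all 3 libraries had a peak between 76.5 and 76.7 kb. Those of IP libraries 2 and 3 overlapped, with 7.69 and 6.69 normalized tags, while that of IP library 1, with 6.88, lay beside them without overlap, so these peaks do not count as a reproducible region. The nearest reproducible region, from 99783289 to 99783459, was 90.7 kb beyond the end of the gene and held 15.7, 14.8 and 13.6 normalized tags in IP libraries 1, 2 and 3 (14.7 ± 1.05, mean and SD, n = 3). Its mean was close to the 15.1 of the strongest region at Sox1. Cldn18, which encodes a claudin of tight junctions, was the nearer protein-coding gene, at 66.1 kb. Gm23949, a small nucleolar RNA gene, was nearer still, at 32.9 kb. A much stronger region followed on the same side, 129 kb from Sox14, from 99744576 to 99744828, with 31.1, 29.9 and 27.0 normalized tags (29.3 ± 2.11, mean and SD, n = 3). It lay 27.4 kb from Cldn18 and 5.69 kb from Gm23949. On the other side, upstream of the start, the first reproducible region was 118 kb away with 11.8, 11.4 and 8.60 normalized tags. Sox14 was the nearest protein-coding gene there, but the non-coding gene 4930519F24Rik was nearer, at 27.9 kb.

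**Figure D3:**
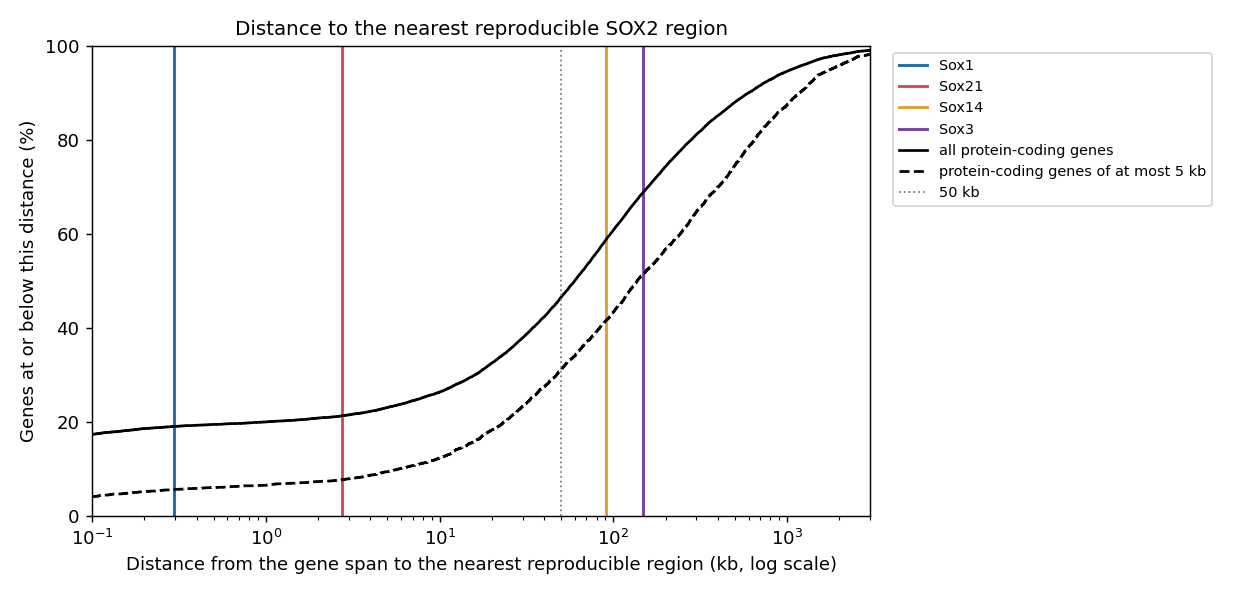
The cumulative share of protein-coding genes in percent (vertical axis) is plotted against the distance in kb, on a log axis, from the gene to its nearest reproducible region, for all genes (solid) and for genes of at most 5 kb (dashed), with the 4 members as coloured lines. Sox1 and Sox21 lay at the near end, at 0.294 and 2.74 kb, and Sox14 and Sox3 beyond the 50 kb limit, at 90.7 and 148 kb.

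Measured as the distance to the nearest reproducible region, the 4 genes were spread widely. Sox1 at 0.294 kb and Sox21 at 2.74 kb were nearer than most genes: 19.1% and 21.3% of protein-coding genes had a nearer region, and 5.67% and 7.75% of those of at most 5 kb. For Sox14, at 90.7 kb, the shares were 58.8% and 41.6%, and for Sox3, at 148 kb, 68.8% and 51.3%. The median was 59.8 kb over all protein-coding genes and 137 kb over genes of at most 5 kb. Sox14 and Sox3 were therefore near the middle of genes of their size.

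Sox21 encodes the SOXB2 repressor that acts against SOXB1 factors in neural progenitors. It lies on chromosome 14 from 118233233 to 118237030 on the minus strand, and its start is at the higher coordinate. The only SOX2 region within 50 kb was downstream of the gene, from 118230322 to 118230672, 2.74 kb beyond its end and 6.53 kb from its start. Sox21 was the nearest gene of any kind. The region overlapped neither the start window of Sox21 nor Gm4675, a non-coding gene that overlaps the start of Sox21.

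The Sox21 region held 51.7, 56.9 and 38.0 normalized tags in IP libraries 1, 2 and 3 (48.9 ± 9.76, mean and SD, n = 3). These values came from 188, 185 and 159 tags and ranked 1, 1 and 4 among all peaks of their libraries. The 95% Poisson interval of IP library 3 ran from 32.3 to 44.4 normalized tags. It lay below those of IP libraries 1 (44.6 to 59.7) and 2 (49.0 to 65.8). The peaks were called at different places, so the intervals do not count the same bases. The median peak was also lower in IP library 3, at 5.25 normalized tags against 6.06 and 6.16 in IP libraries 1 and 2. By contrast, the score that the authors deposited for the Sox21 peaks was highest in IP library 3, at 139, 128 and 152 in IP libraries 1, 2 and 3. IP library 3 had the most tags in total. Whether SOX2 occupancy differed between the libraries was not tested. The ratio to the input varied from 31.3-fold in IP library 2 to 125-fold in IP library 3, with 42.6-fold in IP library 1. The input had 5.9, 1.0 and 4.0 tags under these peaks, in the same order, the first of these scaled to the IP library.

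The peaks of the 3 libraries were not at 1 place. The centre of the peak lay 2.74, 2.64 and 2.83 kb from the gene in IP libraries 1, 2 and 3, a spread of 195 bp, which is more than the peak width of 152 to 158 bp. The peak of IP library 1 overlapped both others, and those of IP libraries 2 and 3 did not overlap, so the region counts as reproducible only through library 1. The focus ratio, a fraction given by the authors that is higher the more the tags of a peak point to its centre, was 0.608, 0.623 and 0.594 (0.608 ± 0.0145, mean and SD, n = 3), against a median peak of 0.737, 0.737 and 0.731. Among the 100 strongest peaks of a library, only 2, 1 and 0 had a lower focus ratio than the Sox21 peak in IP libraries 1, 2 and 3, where the median was 0.800, 0.810 and 0.790. Enrichment over the surrounding 10 kb was 16.7-fold, 18.6-fold and 14.6-fold at Sox21, against medians of 27.8-fold, 27.8-fold and 23.5-fold among the 100 strongest. Only 5, 8 and 2 of these peaks had a lower value. The tags at Sox21 were thus less concentrated at a point than those of most of the 100 strongest peaks. Peak calling considered at most 1, 1 and 2 tags per bp in IP libraries 1, 2 and 3, and the effect of that limit was not tested.

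**Figure D4:**
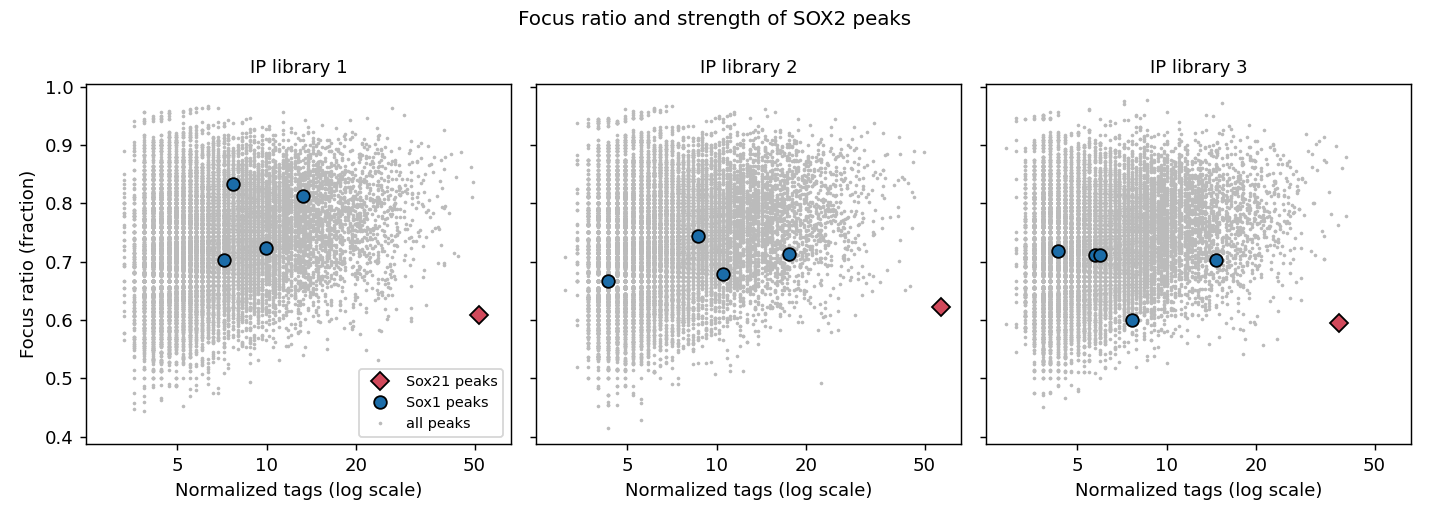
The focus ratio of each peak (a fraction, vertical axis) is plotted against its normalized tags on a log axis, 1 panel for each IP library, with Sox21 peaks as red diamonds, Sox1 peaks as blue circles and all peaks in grey. The Sox21 peaks stood at the far right of every panel at a focus ratio of 0.594 to 0.623, below nearly all of the 100 strongest peaks. The Sox1 peaks were scattered through the cloud.

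At the Sox1 regions the focus ratio was closer to that of the median peak. It averaged 0.743 ± 0.0608 at the strongest region, 0.719 ± 0.0221 at its neighbour, 0.668 ± 0.0628 at the Sox1 start and 0.737 ± 0.0860 at the Sox1ot start (SD, n = 3 each). The Sox1 start was the lowest of these, and its peak in IP library 3 had a ratio of 0.600, below all but 4.95% of the peaks of that library.

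In the order of mean strength the 5 regions ran from Sox21 through the Sox1 regions at 30.6 kb, at the start and at 33.2 kb to the Sox1ot start. The Sox21 region was higher than the strongest Sox1 region in 3 of 3 libraries, by 33.8 ± 8.99 normalized tags (mean and SD of the differences within libraries), and the ranges did not overlap. The strongest Sox1 region was higher than that at the Sox1 start in 3 of 3 libraries, by 5.75 ± 2.13, again without overlap. The Sox1 start was higher than the region at 33.2 kb in 3 of 3 libraries, by 2.10 ± 0.573, but the ranges over libraries overlapped. In each of these pairs an exact permutation test that flips the signs of the within-library differences gave a two-sided p = 0.25, the smallest that 3 libraries allow. The pairs were picked by mean strength in these same libraries, so the tests are no independent evidence for the order. The last pair, the regions at 33.2 kb and at the Sox1ot start, differed by 1.33 ± 2.61, was higher at 33.2 kb in 2 of 3 libraries and had p = 0.75 in the same exact permutation test.

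Within the SOXB group, Sox2 itself had 2 reproducible regions within 50 kb, the stronger across its own start with 8.53, 12.3 and 9.55 normalized tags (10.1 ± 1.95, mean and SD, n = 3). That is close to the 9.35 ± 1.51 at the start of Sox1, and the ranges of both over libraries overlapped.

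**Figure D5:**
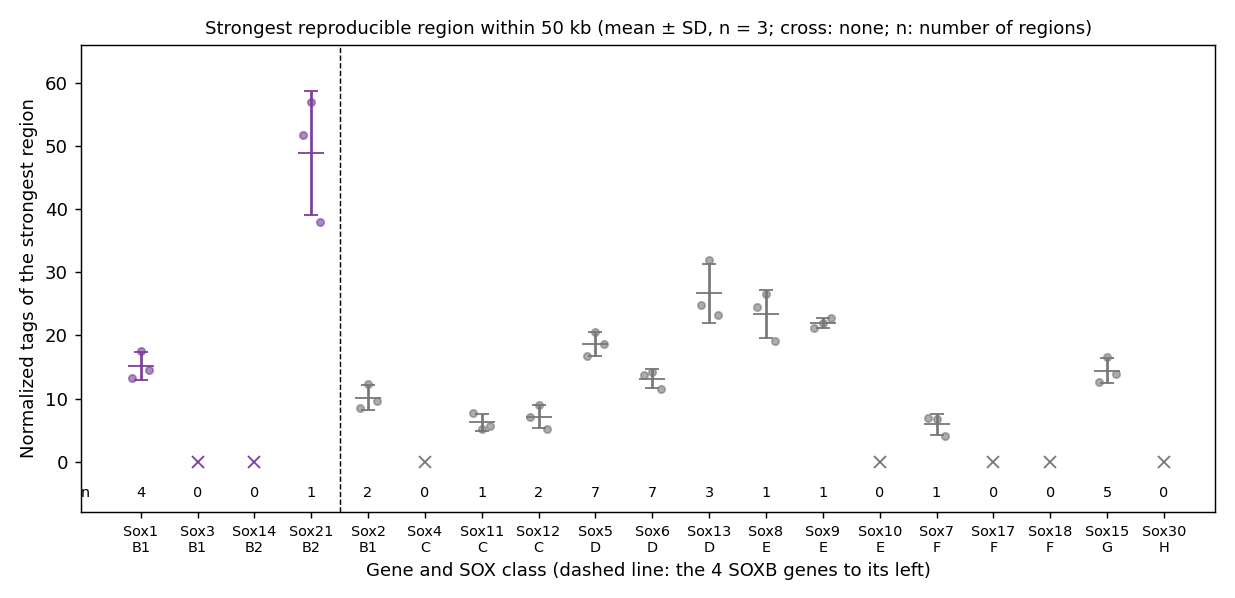
The strongest reproducible region within 50 kb of each SOX gene is plotted in normalized tags (mean ± SD over 3 IP libraries, points for single libraries), with the 4 SOXB members left of the dashed line, the SOX class under each gene, the number of regions along the bottom and a cross where there was none. Sox21 had the highest mean of the family at 48.9, Sox1 was in the middle at 15.1, and Sox3 and Sox14 were among the genes without a region.

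In the rest of the SOX family, which shares the HMG box, 10 of 15 genes (66.7%) had a reproducible region within 50 kb, counted without the Y-linked gene Sry, near which there was no peak. Across the family the share was 63.2%, against 46.6% of all protein-coding genes. The strongest regions of these 10 genes had means of 5.90 to 26.7 normalized tags, with a median of 13.8, so Sox21 lay above all of them and Sox1, at 15.1, near the middle. Sox13, a SOXD gene, was the highest of the others at 26.7 ± 4.69, followed by the SOXE genes Sox8 at 23.4 ± 3.83 and Sox9 at 21.9 ± 0.751 (SD, n = 3 each). The SOXD genes Sox5 and Sox6 had 7 regions each, but span 954 and 570 kb, whereas Sox1 had its 4 regions in a window of 104 kb. Sox15, a gene of 1.69 kb, had 5 regions, and its strongest lay inside another gene, Tnfsfm13, 29.2 kb away. The strongest regions of Sox12 and Sox7 were likewise nearer to another protein-coding gene, Zcchc3 and 4930578I06Rik. Sox11 had 1 region, with 6.22 ± 1.31 normalized tags. Sox4, Sox10, Sox17, Sox18 and Sox30 had no reproducible region, like Sox3 and Sox14. Of these, Sox4, Sox10 and Sox30 had 5, 4 and 1 regions that were not found in all 3 libraries, and the others had no peak at all.

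The genes with the most similar values were sought among the 4857 protein-coding genes that were nearest to a reproducible region within 50 kb, by the distance between log2 normalized tags of the strongest region over the 3 libraries. For Sox1, which ranked 667 by mean strength, these were Oat, which encodes ornithine aminotransferase (distance 0.083), Btd, which encodes biotinidase (0.10), and Kcnn2, which encodes a calcium-activated potassium channel (0.11). For Sox21, which ranked 1, they were the phosphatase gene Phlpp1 (0.38), the kinase gene Cdk12 (0.44) and the zinc finger gene Klf13 (0.51). Each strongest region of the Sox1 set lay inside its gene, unlike that of Sox1.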

How the data were processed

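SOX2 ChIP-seq peak lists of 3 IP libraries were analysed; the input entered through columns of these lists. Bowtie 1.0.0, HOMER 4.7 and mm10 stand in the submitters' processing notes. The authors ran HOMER findPeaks on each IP library in factor mode, per the file headers, requiring 4-fold enrichment and a Poisson p-value of 0.0001 over both the input and the surrounding 10 kb, with the false discovery rate set to 0.001. The deposited normalized tags are a signal scaled to 10000000 tags, the focus ratio is a fraction, the folds are ratios with an input floor of 0.5 tags, and the score and p-values were deposited beside them. The total tags of each peak were deposited as counts in IP library 2, but in libraries 1 and 3 as a signal on the scale of the input. The totals of whole libraries are counts in all 3.

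Peaks sharing 1 bp or more were merged, in chains where needed. Genes, strands and start windows came from RefSeq tables of GRCm38.p6; strand was taken from the start windows. Chromosome Y was left out of gene counts. Tag numbers were computed from normalized tags and library totals, and Poisson intervals (95%) cover counting error only. With 1 group of IP libraries and no input table, no groups were compared and no model was fitted over all genes; the only tests were exact sign-flip tests between regions. The members and lists were chosen with earlier results of these data known. Named genes are the members, the SOX family, genes nearer to a peak, and for each member with a region the 3 genes closest in log2 tags. A planned comparison of protein sequences was not run. Merging and gene assignment were tested on simulated data. The software was Python 3.11.15 with matplotlib 3.10.9, scipy 1.17.1, pandas 2.3.3 and numpy 2.4.6.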

Additional observations from a re-analysis of the deposited data

How the results depend on the processing

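Results were recomputed with another peak threshold, window, overlap, number of libraries and gene assignment. Sox1 had 2 reproducible regions instead of 4 within 20 kb and also with only peaks of at least 8-fold over the input, and 0 where the nearest gene of any kind had to be Sox1, since Sox1ot was nearer. Sox14 had 1 instead of 0 within 100 kb. Sox21 had 0 instead of 1 with a required overlap of 0.5 of both lengths or with a base common to all 3 libraries, and 0 to 1 when each library was left out, with 0 without IP library 1. The other 64 of 71 values counted as unchanged. For that, a count of 0 had to stay 0, and other counts or shares within 1.5 times the reported value. A strength had to stay within 1 SD. It was 44.9 to 54.3 normalized tags at Sox21 and 13.9 to 16.1 at Sox1 when each library was left out. Many of the 64 were fixed in advance and show no stability. With no peak within 50 kb of Sox3 or Sox14, only the wider window could change their counts. Beside the within-library differences between regions, no groups could be paired. No paired analysis was possible because there was only 1 group of libraries with peak lists, the IP group, to set against another. The weakest deposited peaks held 3.30, 3.08 and 2.87 normalized tags in IP libraries 1, 2 and 3, and the lists hold no values for weaker signal at Sox3 or Sox14.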

Other observations

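Between 50 and 500 kb, which is outside the window used above, the reproducible regions around each member were also counted. The same count was not made for other protein-coding genes, so whether a number is high or low cannot be told. Sox14 had 10 such regions, with means of 5.86 to 29.3 normalized tags over the 3 IP libraries, and was the nearest protein-coding gene to 1 of them. Sox1 had 5, with means of 5.39 to 19.4 normalized tags, and was the nearest protein-coding gene to 0. The strongest of these held 23.4, 19.4 and 15.3 normalized tags in IP libraries 1, 2 and 3. It lay 87.1 kb from Sox1, 86.4 kb from Spaca7, a gene of the sperm acrosome, and 10.3 kb from the non-coding gene Gm33532. It was stronger than every region within 50 kb of Sox1. Sox21 had 4, with means of 5.12 to 12.6 normalized tags, none of them nearest to Sox21, and Sox3 had 1, described above.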
